A study of Homo sapiens with 60 samples.

Results

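SW1783 cells, a human astrocytoma line, were compared after treatment with a hot-water extract of Angelicae Gigantis Radix (the root called angelica here) at its highest dose and after the DMSO vehicle. The comparison used 5 of the 60 RNA sequencing libraries of the series, chosen by their treatment labels: 2 of angelica at 500 µg/mL and 3 of vehicle, all taken at 24 h. The angelica groups at 100 µg/mL and 20 µg/mL (2 libraries each) and the high-dose groups of 5 other water extracts (poria, atractylodes, licorice, ginseng and peony, 14 libraries labelled 500 µg/mL) served as further comparisons. All cells were grown in Leibovitz's L-15, a medium that supplies galactose in place of glucose, with fetal bovine serum. The vehicle was DMSO, at 0.1% by the sample labels and 2% by the series text. Neither text says whether the extract samples held DMSO or whether replicates were separate cultures. The p-values below thus reflect only the spread of libraries within groups, estimated over all 60 libraries, and this spread may be technical.

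The 5 libraries held between 24.93 M and 29.87 M counts (M, 1000000), and all 60 between 19.45 M and 30.87 M. The titles name one batch for all samples, but vehicle and angelica carry sample codes of different sets, so set and treatment cannot be told apart where angelica is compared with vehicle. The angelica doses share their set with peony, whereas poria, atractylodes, licorice and ginseng carry codes of other sets, so set and extract cannot be told apart for these 4 either. The share of counts from mitochondrially encoded genes was 5.42% to 5.9% in the vehicle libraries and 4.71% to 4.91% in both high-dose libraries. Replicate 2 of the low dose stood apart from replicate 1 in this share, at 6.52% against 4.89%. Of 15 astroglial markers 9 were measured: CD44 (2746 counts per M, or CPM, in vehicle), VIM (6017 CPM) and GJA1 (255 CPM) were present, whereas GFAP had at most 5 counts and AQP4 at most 2 in any of the 5 libraries. The summed level of the neuronal list was 190 to 193 CPM in vehicle and 192 to 195 at the high dose, and that of the endothelial and epithelial list 270 to 277 and 252 to 256. For the microglial and blood list it was 173 to 185 and 140 to 147, and CD68, a protein of lysosomes too, was the only call in it (-0.38 on the log2 scale). In the neuronal list 1 of 7 measured members was called lower, SYT1, at -0.33 to -0.25 across 11 alternative analyses. In the astroglial list 1 of 9 was called lower, SOX9, at -0.27 to -0.19. The SOX9 call was lost without replicate 3 of the vehicle.

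Several of the systems described below are well known. TXNIP and ARRDC4 encode alpha-arrestins that limit glucose uptake, and their transcription is driven by MondoA, a factor that responds to sugar phosphates. The unfolded protein response raises chaperones of the endoplasmic reticulum (ER), such as HSPA5 (BiP), through the factors ATF6 and XBP1 when unfolded proteins build up there. ATF4 is the transcription factor of the integrated stress response and drives amino acid transporters and aminoacyl-tRNA synthetases. NRF2 drives genes of glutathione and quinone metabolism.

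The promoter stretches of the genes at the centre of both patterns are shown because they carry the textbook elements of these factors, taken from RefSeq on GRCh38.p14. The ER stress element was searched as CCAAT and CCACG with any 9 bases between them, its second form as ATTGG and CCACG with any 1 base between them, and a relaxed carbohydrate response element as CACGNG repeated after any 5 bases, each on both strands of the 250 bases before the start of the gene. Capitals mark the match, which for CALR is on the opposite strand. The stretches are HSPA5 at chr9:125241344-125241593 (minus strand), CALR at chr19:12938364-12938422 (plus), HERPUD1 at chr16:56932005-56932055 (plus) and TXNIP at chr1:145996631-145996687 (minus).
HSPA5: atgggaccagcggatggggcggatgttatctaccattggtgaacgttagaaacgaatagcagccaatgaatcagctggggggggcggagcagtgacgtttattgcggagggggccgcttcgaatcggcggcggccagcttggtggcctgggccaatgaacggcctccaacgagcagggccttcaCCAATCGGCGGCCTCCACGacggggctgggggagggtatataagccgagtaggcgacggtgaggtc
CALR: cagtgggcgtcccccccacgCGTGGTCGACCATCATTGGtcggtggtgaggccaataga
HERPUD1: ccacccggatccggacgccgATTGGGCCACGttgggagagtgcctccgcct
TXNIP: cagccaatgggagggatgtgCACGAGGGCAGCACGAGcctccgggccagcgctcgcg

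The ER stress element matched 25 of 27305 promoters (0.0916%) and 7 of the 20 ER list promoters that could be matched: HSPA5, HSP90B1, CALR, CANX, PDIA6, CRELD2 and XBP1. Of the 14 matched members called lower against vehicle, 6 held this element, and CRELD2 was not called. Its second form matched 18 promoters in all (0.0659%), among them HERPUD1, HYOU1 and SDF2L1, the last of which was not called. The relaxed carbohydrate response element matched 16 promoters (0.0586%), TXNIP among them, while the strict form with CACGTG on both sides matched none of the 6 promoters of the glucose-sensing list. A match describes these letters only. The second form and the relaxed form were added after the values were seen.

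At the high dose, 1158 of 17919 genes tested (6.46%) passed an adjusted p of 0.05 against vehicle, 526 higher and 632 lower. These are 2.94% and 3.53% of all genes tested, the shares to set beside the list counts against vehicle below. The test was the quasi-likelihood test of edgeR, adjusted by Benjamini-Hochberg over all genes tested. Changes are log2 fold changes ± SE, and levels are CPM scaled between libraries. Most changes were small: the median size among called genes was 0.29 on the log2 scale, and 39 called genes (0.218%) moved by 2-fold or more. Calls numbered 401 without replicate 1 of the high dose, 264 without replicate 2 and 620 without replicate 1 of the vehicle. Against the same vehicle libraries, 522 genes were called at 100 µg/mL (2.91%; 1.47% higher and 1.44% lower) and 313 at 20 µg/mL (1.75%; 1.05% higher and 0.692% lower). Leaving out 1 library gave 60 to 344 calls at 100 µg/mL, lowest without replicate 1 of that dose, and 93 to 280 at 20 µg/mL, lowest without replicate 1 of that dose. The largest changes were picked among genes whose high-dose libraries both lay on 1 side of all vehicle libraries. For these genes the absence of overlap follows from that rule and is no further support. Genes and lists named beyond the largest changes were chosen after their values were seen.

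**Figure D1:**
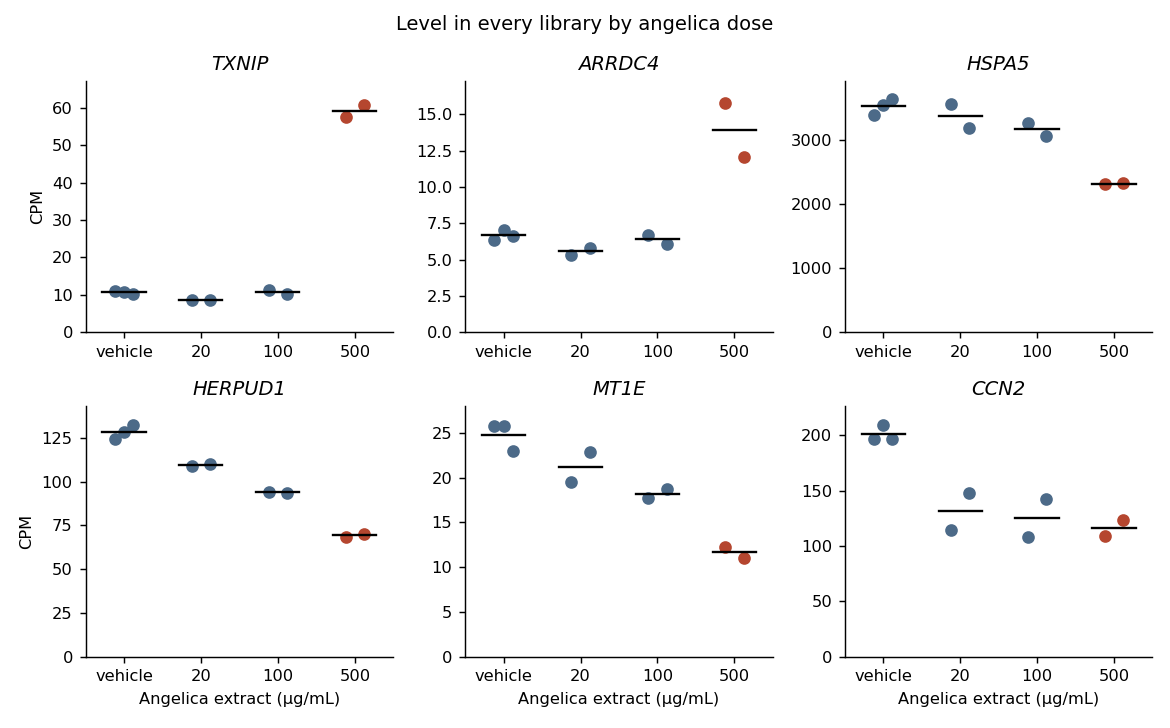
CPM (vertical axis, from 0) of 6 genes in every library by angelica dose in µg/mL (horizontal axis); points are libraries and bars are group means. TXNIP and ARRDC4 are high in both libraries at 500 µg/mL alone, HSPA5, HERPUD1 and MT1E are lowest there, and CCN2 is already low at 20 µg/mL.

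TXNIP was the gene with the largest rise by the rule for named genes. TXNIP (chromosome 1, 145992435 to 145996600, minus strand, GRCh38) read 11.0, 10.7 and 10.3 CPM in the vehicle libraries and 57.6 and 60.8 CPM at the high dose. The groups did not overlap, and the low dose (8.73 and 8.49 CPM) and medium dose (11.4 and 10.1 CPM) stayed near or below vehicle. The log2 fold change of TXNIP was 2.47 ± 0.09, a 5.54-fold rise (edgeR adjusted p = 1.02e-28), and 2.78 against the low dose (edgeR adjusted p = 1.22e-27). Across 11 alternative analyses the change against vehicle ran from 2.43 to 2.51. ARRDC4 (chromosome 15, 97960698 to 97973838, plus strand) read 6.37, 7.01 and 6.64 CPM in vehicle and 15.8 and 12.1 CPM at the high dose. Both high-dose libraries lay above every vehicle library, as the rule for named genes requires. The log2 fold change of ARRDC4 was 1.07 ± 0.10 (edgeR adjusted p = 2.14e-10).

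The third member of the glucose-sensing list to rise was ARRDC3, another alpha-arrestin, at 65.5 ± 3.01 CPM in vehicle (SD, n = 3) and 80.8 ± 3.33 CPM at the high dose (SD, n = 2). Its log2 fold change was 0.30 ± 0.06 (edgeR adjusted p = 0.000447), and leaving out replicate 1 of the high dose took it just past the threshold (0.0507). Unlike TXNIP, ARRDC3 was also higher at the medium dose, by 0.28 (edgeR adjusted p = 0.00265). In all, 3 of 7 measured members rose and 0 fell (2.94% and 3.53% of all genes tested). MLXIP, which encodes MondoA itself, was at 58.1 CPM in vehicle and 54.4 CPM at the high dose (edgeR adjusted p = 0.422).

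The ER list showed the highest share of called members among the 39 lists: 15 of 22 fell and 0 rose (3.53% and 2.94% of all genes). Its median log2 fold change was -0.29 against 0.007 over all genes. HSPA5, the main chaperone of the ER lumen, read 3404, 3560 and 3641 CPM in vehicle and 2315 and 2336 CPM at the high dose. No high-dose library reached the lowest vehicle library, and HSPA5 fell by 0.60 on the log2 scale, with an SE of 0.06 (edgeR adjusted p = 5.51e-10). HERPUD1, a membrane protein of ER-associated degradation, read 124, 128 and 132 CPM in vehicle against 68.6 and 70.2 CPM. HERPUD1 fell by 0.88 ± 0.14 (edgeR adjusted p = 2.85e-05), and its medium-dose libraries lay between, at 94.0 and 93.5 CPM.

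Other lumenal folding proteins fell by less. The disulfide isomerase gene PDIA4 went from 750 ± 15.2 CPM (SD, n = 3) to 576 ± 12.7 CPM (SD, n = 2), a log2 fold change of -0.38 ± 0.04. The lectin chaperone CALR read 1966, 1942 and 1904 CPM in vehicle and 1520 and 1544 CPM at the high dose, and its log2 fold change was -0.34 ± 0.04. The secreted factor MANF changed by -0.54, the BiP co-chaperone DNAJB9 by -0.50, HYOU1 by -0.37 and the HSP90 of the ER, HSP90B1, by -0.32. The transcription factor XBP1 changed by -0.33, whereas ATF6 (75.8 CPM in vehicle, 72.3 CPM at the high dose) and EDEM1 (90.7 and 90.2 CPM) did not pass the test. In 21 of the 22 members both high-dose libraries lay below every vehicle library, as for 21.9% of all genes.

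The fall of the ER list was called at the high dose. Against the low dose 10 of the 22 fell and 0 rose (0.558% and 0.385% of all genes), with HSPA5 at -0.54, HERPUD1 at -0.66 and PDIA4 at -0.40. That count was 6 and 7 without replicates 1 and 2 of the high dose, 5 without replicate 2 of the low dose and 1 (HERPUD1) when only these groups were fitted, where HSPA5 kept its value of -0.54 with an edgeR adjusted p of 0.095. At the medium and low doses edgeR called 0 members against vehicle. At the medium dose 10 members were lower at an unadjusted p under 0.05 and DESeq2 called 4 of them lower, and at the low dose 2 passed the unadjusted p and DESeq2 called 0. The count against vehicle was 12 without replicate 1 of the high dose and 11 without replicate 2. The call of SYVN1, an ER ubiquitin ligase with high-dose values of 76.1 and 61.6 CPM, was lost in 4 of the 11 alternatives.

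**Figure D2:**
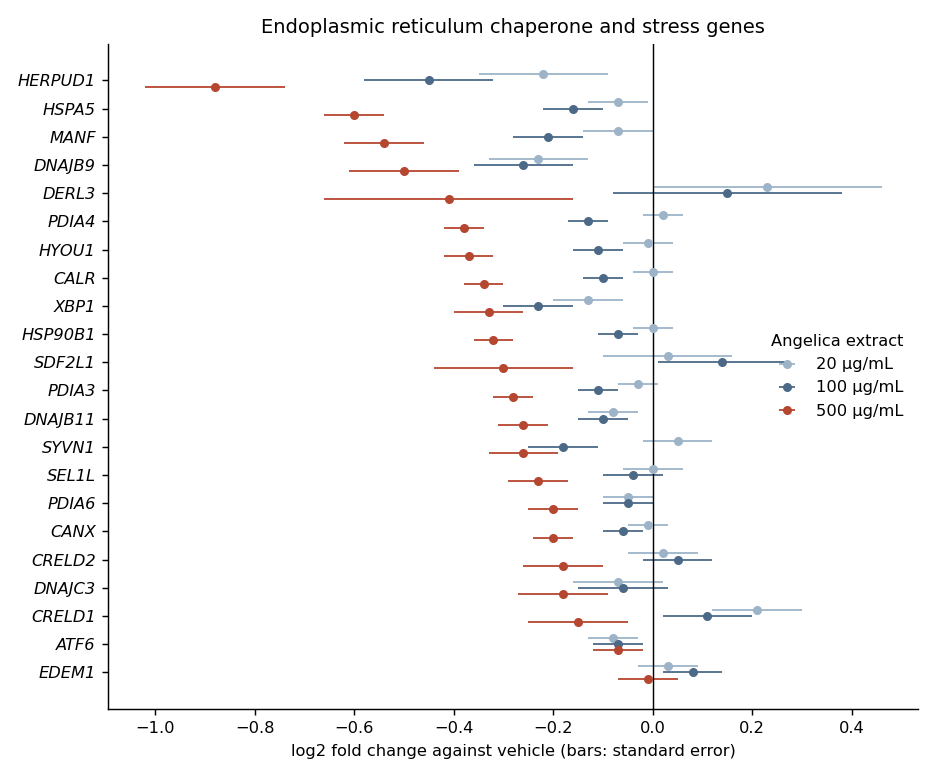
Log2 fold change against vehicle (horizontal axis, bars are SE) of the 22 measured ER chaperone and stress genes (vertical axis) at 3 angelica doses. At 500 µg/mL the points run from -0.88 for HERPUD1 to -0.01 for EDEM1, while at 20 µg/mL they scatter around 0.

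Among ATF4 and integrated stress genes, 10 of 27 fell and 2 rose (3.53% and 2.94% of all genes). The amino acid transporter SLC7A5 read 217, 207 and 215 CPM in vehicle and 159 and 153 CPM at the high dose. Its groups did not overlap, and it fell by 0.45 ± 0.05 (edgeR adjusted p = 1.87e-08), with a smaller fall of 0.27 at the medium dose. DDIT3 (CHOP), a factor of stress-induced cell death, fell from 33.6 to 22.4 CPM on average, by 0.58. The stress cytokine GDF15 fell by 0.63, ATF4 itself by 0.31, the tryptophanyl-tRNA synthetase WARS1 by 0.29 and the asparagine synthetase ASNS by 0.24.

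The 2 ATF4-list genes that rose were SLC7A11, the cystine importer, by 0.38 ± 0.07, and DDIT4, an inhibitor of mTORC1, by 0.65 ± 0.10. DDIT4 read 51.1, 60.5 and 57.5 CPM in vehicle and 83.7 and 92.8 CPM at the high dose. Its medium-dose level was like that of the high dose, at 86.7 and 87.8 CPM. Other textbook targets gave no call: TRIB3 had a log2 fold change of -0.19, CHAC1 of -0.12 and ATF3 of 0.07. The number of lower members was 4 without replicate 1 of the high dose, 5 without replicate 2 and 6 without replicate 3 of the vehicle.

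Metallothioneins, small proteins that bind zinc and copper, were lower. MT1E read 25.7, 25.7 and 23.0 CPM in vehicle and 12.3 and 11.0 CPM at the high dose, a log2 fold change of -1.09 ± 0.14 (edgeR adjusted p = 1.02e-06). MT1X fell from 18.3 to 10.4 CPM, by 0.82, and MT2A from 478 to 301 CPM, by 0.67. All 3 had high-dose libraries below every vehicle library, as the rule for named genes requires, and were also lower at the medium dose. They lie together on chromosome 16 (MT2A from 56608199 and MT1X up to 56684196) and are near-identical in sequence, so how reads were split between them is uncertain. MT1A and MT1F were at or below 0.602 CPM in every vehicle library and gave no call, and the zinc exporter SLC30A1 had a log2 fold change of -0.03.

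Of 29 NRF2 and glutathione genes 7 rose and 0 fell (2.94% and 3.53% of all genes). NQO1, a quinone reductase, read 131, 129 and 128 CPM in vehicle and 163 and 164 CPM at the high dose. Both high-dose libraries lay above vehicle, with a log2 fold change of 0.34 ± 0.06 (edgeR adjusted p = 3.43e-05). The aldo-keto reductases AKR1B10, AKR1C2 and AKR1C1 rose by 0.85, 0.50 and 0.32, the glutathione synthesis subunit GCLM by 0.22, thioredoxin reductase TXNRD1 by 0.18 and SLC7A11 as given above. The AKR1C genes are similar in sequence, so their separate values are uncertain. TXNRD1 lost its call in 4 of 11 alternatives, and 5 members rose without either high-dose library. HMOX1 (84.1 and 80.3 CPM), SRXN1 (97.1 CPM in both groups) and GCLC (38.0 CPM in both groups) did not pass the test.

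Of 8 measured aryl hydrocarbon receptor targets, NQO1 and ALDH3A1 rose and TIPARP, a poly(ADP-ribose) polymerase, fell by 0.28. CYP1A1 was at 0.927 ± 0.229 CPM in vehicle (SD, n = 3) and 1.12 ± 0.0763 CPM at the high dose (SD, n = 2), and CYP1B1 at 117 and 122 CPM; neither was called. ALDH3A1 was near the limit of the counts, with at most 0.749 CPM, and its call was lost in 6 of the 10 alternatives that tested it. TIPARP lost its call when replicate 1 or 2 of the vehicle or either high-dose library was left out. Of the 4 measured targets of the xenobiotic receptors PXR and CAR, edgeR called 0, 0 passed an unadjusted p under 0.05 and DESeq2 called 0.

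Genes of the lysosome were lower in 9 of 26 cases and higher in 0 (3.53% and 2.94% of all genes). SQSTM1 (p62), an autophagy receptor, read 549, 566 and 561 CPM in vehicle and 464 and 447 CPM at the high dose, without overlap. SQSTM1 fell by 0.29, the protease CTSD by 0.26 and the cholesterol carrier NPC2 by 0.25, while the membrane proteins LAMP1 (-0.04) and LAMP2 (-0.04) were not called. Without either high-dose library the count was 2. In cholesterol synthesis and uptake 5 of 25 fell and 0 rose, led by the sterol sensor INSIG1 with 0.41, which was also lower at the low dose (by 0.22). That count was 3 without replicate 1 of the high dose and 1 without replicate 2.

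**Figure D3:**
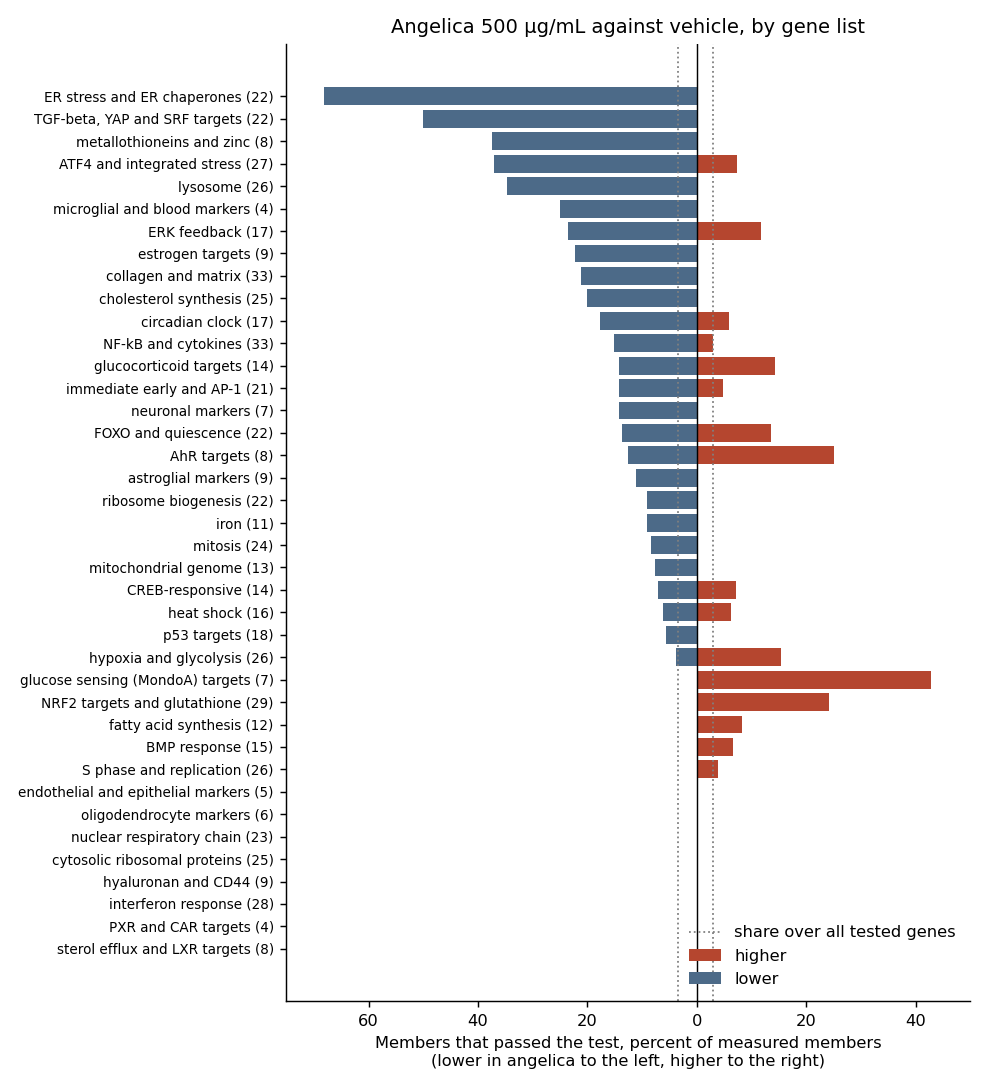
Share of measured members (number in brackets) of each of 39 gene lists that passed the test at 500 µg/mL against vehicle, in percent, lower to the left and higher to the right; dotted lines give the shares over all genes tested, 3.53% and 2.94%. The ER list has the longest bar, and lists at the bottom have no called member.

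Contractile, cytoskeletal and matrix genes formed a further group. Of 22 TGF-beta, YAP and SRF targets 11 were lower and 0 higher (3.53% and 2.94% of all genes). CCN2 (CTGF), a matrix-associated growth modulator, read 197, 209 and 197 CPM in vehicle and 109 and 124 CPM at the high dose. The groups did not overlap and CCN2 fell by 0.78 ± 0.13 (edgeR adjusted p = 6.18e-05), but it was also lower at 20 µg/mL, by 0.62, and high and low dose gave -0.16 (edgeR adjusted p = 0.684). The smooth muscle gene TAGLN fell by 0.37, the tropomyosin TPM1 by 0.28 and the smooth muscle actin ACTA2 by 0.26. CCN1, a close relative of CCN2, went from 374 to 347 CPM (edgeR adjusted p = 0.721). Against the low dose edgeR called 0 of the 22, with 4 lower at an unadjusted p under 0.05 and 1 lower by DESeq2. Against the average of the other extracts at high dose, 2 of the 22 were higher and 1 lower (2.41% and 2.24% of all genes). Against vehicle the count was 4 without replicate 1 of the high dose and 6 without replicate 2.

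Of 33 collagen and matrix genes 7 fell and 0 rose (3.53% and 2.94% of all genes). COL1A1, the main fibrillar collagen chain, changed by -0.26, the proteoglycan BGN by -0.34, the protease MMP2 by -0.22 and THBS1 by -0.31. COL1A1 (4247 CPM in vehicle, 4194 at the low dose, 3555 at the high dose) and MMP2 (423, 420 and 363 CPM) were also lower against the low dose, by 0.24 and 0.21. Both of these calls were lost without either high-dose library, without replicate 2 of the low dose (log2 fold changes of -0.16 and -0.10) and on these groups alone. The count for this list was 1 without replicate 2 of the high dose and 5 without replicate 1.

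Among genes that report growth factor signalling, the cyclin CCND1 fell by 0.36, the feedback inhibitor SPRY4 by 0.39 and the immediate early factor EGR3 by 0.58, while EGR1 rose by 0.64. EGR1 lost its call without replicate 1 or 3 of the vehicle or either high-dose library, and EGR3 in 1 of 11 alternatives. PHLDA1 behaved differently by dose: it read 232, 229 and 230 CPM in vehicle, 201 and 187 CPM at the low dose and 274 and 258 CPM at the high dose. High-dose libraries lay above vehicle and low-dose libraries below it, and the difference between these doses was 0.45 (edgeR adjusted p = 5.96e-09, and 0.095 on these groups alone). IGFBP1, a binding protein of insulin-like growth factors, had the same order, at 21.6 CPM in vehicle, 17.6 at the low dose and 29.8 at the high dose, with 0.75 between the doses (edgeR adjusted p = 5.86e-06). The ERK feedback list as a whole had 2 members higher and 4 lower of 17 (2.94% and 3.53% of all genes). Without replicate 1 of the high dose it had 0 higher and 2 lower, and without replicate 2 it had 1 of each.

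Several cytokine genes also differed between doses. CXCL8, a neutrophil chemokine, read 10.6, 12.6 and 9.91 CPM in vehicle, 6.65 and 6.95 CPM at the low dose and 11.9 and 12.6 CPM at the high dose. The high-dose libraries overlapped vehicle, and CXCL8 was higher than at the low dose by 0.85 (edgeR adjusted p = 7.14e-05). The prostaglandin synthase PTGS2 (87.9 CPM in vehicle, 53.6 at the low dose, 82.7 at the high dose) and the cytokine LIF (55.7, 36.1 and 47.6 CPM) were also lowest at the low dose of these 3, and both high-dose libraries of each lay below vehicle. PTGS2 was 0.62 and LIF 0.40 higher at the high than at the low dose. The LIF call was lost on these groups alone, without either high-dose library and without replicate 1 of the low dose, and the CXCL8 call on these groups alone (edgeR adjusted p = 0.0526). CCL2, a monocyte chemokine, was lower at every dose: 36.4, 35.6 and 36.1 CPM in vehicle and 22.2 CPM in both high-dose libraries, a fall of 0.70 (edgeR adjusted p = 3.43e-06). Of 33 NF-kB and cytokine genes 1 rose and 5 fell at the high dose (2.94% and 3.53% of all genes). At the low dose 0 rose and 7 fell (1.05% and 0.692% of all genes). At the high dose 3 fell without replicate 2.

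The other large rises, like those of TXNIP, ARRDC4 and AKR1B10, were in genes at 21.3 CPM or less in vehicle. FER1L4, a transcribed pseudogene, read 3.77, 4.96 and 3.79 CPM in vehicle and 7.49 and 8.01 CPM at the high dose, a rise of 0.89. The transcribed pseudogene AHSA2P rose by 0.78 and ANKZF1, which acts in ribosome quality control, by 0.74. PPFIA4, TNFRSF25, APBB3, WDR90, ATG16L2 and SLC9A3-AS1 rose by 0.67 to 0.79 and, like the 3 before them, were also called higher at the low dose. TRIM66 rose by 0.72, TIGD7 by 0.71 and UGT1A7 by 0.75 without a call at the low dose. Apart from FER1L4, PPFIA4 and TRIM66, these other rises all had means above vehicle in each of the 5 other extracts at high dose. SLC9A3-AS1, at 21.3 CPM in vehicle, was at 31.4 to 39.8 CPM in them, and TNFRSF25, at 3.43 CPM, at 4.22 to 6.01 CPM. UGT1A7 shares exons with its gene family, and SLC9A3-AS1 is antisense, so both values are uncertain. NEAT1, a nuclear long noncoding RNA, was at 299 CPM in vehicle, 494, 497 and 419 CPM at the low, medium and high dose, and rose at each.

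By annotation class, 58 of 2520 long noncoding RNAs rose (2.3%) and 16 fell (0.635%). Of 14000 protein-coding genes 441 rose (3.15%) and 607 fell (4.34%), so both shares were smaller among long noncoding RNAs. The median log2 fold change was 0.11 for long noncoding RNAs and about 0 for protein-coding genes. The mitochondrially encoded list had a median of -0.28, with 1 of 13 called lower (MT-CO2). The number called was 11 without a filter on low counts, 5 on these groups alone, and 0 without replicate 1 or 2 of the vehicle or either high-dose library. Its summed level was 44283 to 48575 CPM in vehicle and 37472 to 39538 CPM at the high dose. Its part in the higher median of long noncoding RNAs was not tested.

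Further falls by the rule for named genes were in UCA1, a long noncoding RNA (by 0.94), the scaffold NEDD9 (0.87), the exchange factor FGD4 (0.78), KRTAP2-3 (0.71), the kinase SIK1 (0.69), NAV2-AS6 (0.63), CBS of cysteine synthesis (0.61) and FILIP1L (0.60). NEDD9, FGD4, KRTAP2-3 and FILIP1L were also lower at the low dose. In each of the 5 other extracts at high dose the NEDD9 mean, 6.59 to 9.4 CPM, was also below vehicle (10.3 CPM). The other genes named here had a mean above vehicle in some of these extracts. The CBS value rested on 1 library, with 8.85 and 5.01 CPM at the high dose against 9.89 to 11.7 CPM in vehicle, and without replicate 2 of the high dose its log2 fold change was -0.27. KRTAP2-3 lost its call in 4 of 11 alternatives and TIGD7 in 2.

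Other lists varied in their share of calls, against 6.46% of all genes (2.94% higher and 3.53% lower). For glucocorticoid targets it was 28.6% (2 higher and 2 lower), and for FOXO and quiescence 27.3% (3 and 3). Estrogen targets had 22.2% (0 and 2), circadian genes 23.5% and hypoxia and glycolysis 19.2%, but S phase had 3.85%. With each vehicle library left out in turn, the glucocorticoid list had 0 higher and 1 lower. Of the circadian genes 1 of 17 rose (DBP, by 0.61) and 3 fell (BMAL1 by 0.51, with NR1D2 and BHLHE41), a count that became 1 and 1 without replicate 1 of the high dose and 0 without replicate 2. Of 28 interferon response genes edgeR called 0, with 2 at an unadjusted p under 0.05 and 0 by DESeq2. Of 25 cytosolic ribosomal protein genes edgeR called 0, with 2 at an unadjusted p under 0.05 and 1 by DESeq2, and of 23 nuclear respiratory chain genes 0, 2 and 0. In mitosis 2 of 24 fell (CDC20 by 0.19 and UBE2C by 0.29), but 0 without replicate 1 or 2 of the vehicle or replicate 2 of the high dose, and in S phase 1 of 26 rose (MCM6 by 0.16), a call lost in 8 of 11 alternatives, among them each that left out 1 library. In heat shock 1 of 16 rose (HSPA8 by 0.20) and 1 fell (HSF1 by 0.16, lost in 6 of 11 alternatives), and in hypoxia and glycolysis 4 of 26 rose by 0.17 to 0.35 and 1 fell, with 1 higher and 0 lower without replicate 1 or 3 of the vehicle or replicate 2 of the high dose.

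Set against the low dose of the same extract, 169 genes were called (0.943%), 69 higher and 100 lower. TXNIP, ARRDC4, CXCL8, IGFBP1 and PTGS2 were the largest rises. AGAP5 (by 0.96), MT1E (0.86), HERPUD1 (0.66), the channel gene CLIC3 (0.65) and the exchange factor MCF2L (0.64) were the largest falls. The count was 37 without replicate 2 of the low dose, which stood apart in its mitochondrial share, 847 without replicate 1 of the low dose, and 46 and 38 without replicates 1 and 2 of the high dose. TXNIP, IGFBP1 and PTGS2 kept their call in every alternative, whereas AGAP5, CLIC3, MT1E and HERPUD1 lost it in some.

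Against the 5 other extracts at their high dose, averaged with equal weight on the log scale, 833 genes were called (4.65%), 432 higher and 401 lower. The NF-kB and cytokine list differed most: 26 of 33 members were lower in angelica and 1 was higher (2.24% and 2.41% of all genes), with a median log2 fold change of -0.64. CXCL8 was at 11.9 and 12.6 CPM in angelica and on average at 208 CPM in atractylodes, 239 in licorice, 20.4 in poria, 12.1 in ginseng and 14.6 in peony. Angelica was thus low beside atractylodes and licorice but overlapped vehicle and ginseng. IL6 (5.34 CPM in angelica, 33.2 in atractylodes, 54.9 in licorice and 5.82 to 7.45 in the others) and ICAM1 (61.8, 255 and 395, and 56.9 to 68.9 CPM) were likewise far lower in angelica than in atractylodes and licorice. The ICAM1 libraries of angelica (64.4 and 59.2 CPM) lay below every vehicle library and above every ginseng library. The log2 fold changes against the average were -1.87 ± 0.09 for CXCL8, -1.38 ± 0.11 for IL6 and -0.94 ± 0.04 for ICAM1 (edgeR adjusted p = 5.85e-22, 1.65e-14 and 2.74e-23).

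**Figure D4:**
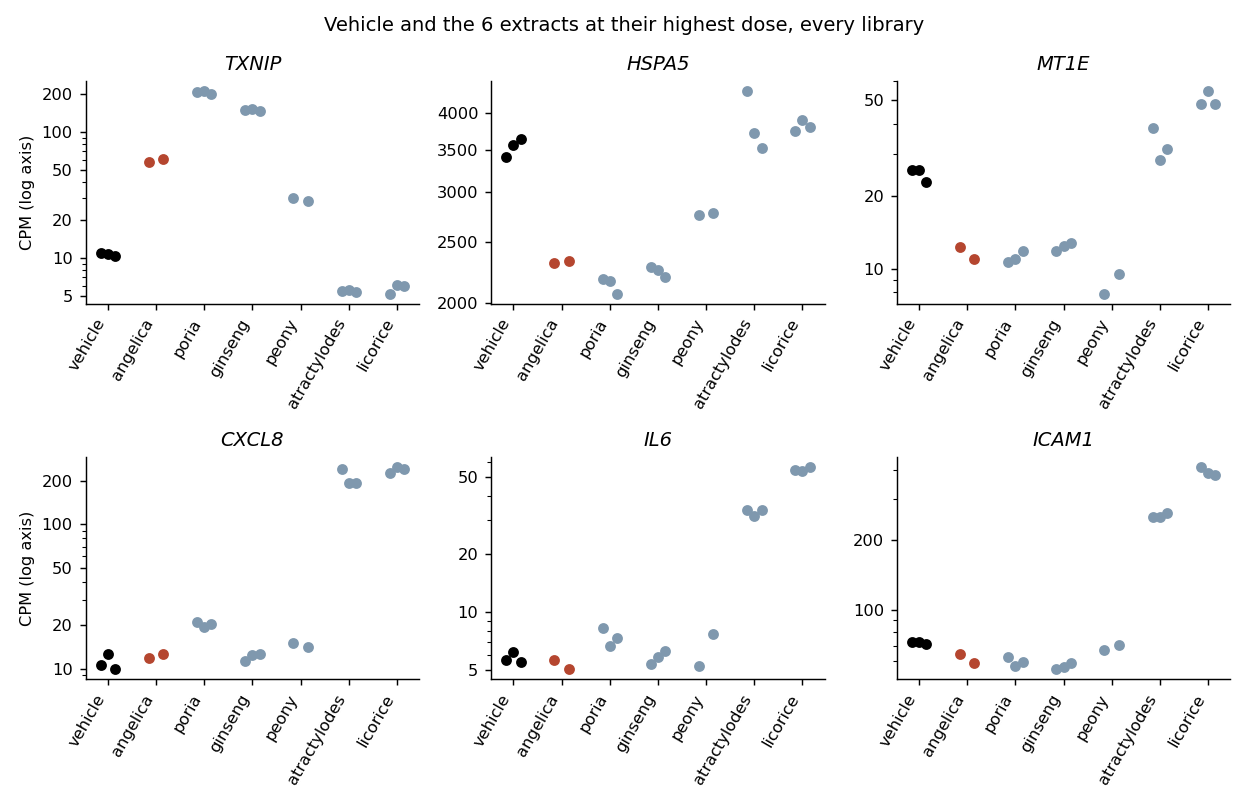
CPM on a log axis of 6 genes in every library of vehicle and of the 6 extracts at their highest dose; each point is a library and angelica is red. For CXCL8, IL6 and ICAM1 atractylodes and licorice lie far above the rest, and for TXNIP angelica (57.6 and 60.8) lies below poria and ginseng and above peony.

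TXNIP also separated the extracts, with mean levels of 206 CPM in poria, 150 in ginseng, 59.2 in angelica, 29.2 in peony, 5.74 in licorice and 5.46 in atractylodes. HSPA5 stood at 2141, 2246, 2326 and 2768 CPM in poria, ginseng, angelica and peony, and at 3814 and 3854 CPM in licorice and atractylodes. HERPUD1 means in the 5 other extracts, 59.6 to 114 CPM, were all below vehicle (128 CPM). MT1E, at 24.8 CPM in vehicle and 11.6 in angelica, was at 11.2, 12.4 and 8.72 CPM in poria, ginseng and peony. In atractylodes and licorice MT1E was at 32.8 and 50.4 CPM. Against the average of the others, TXNIP was 0.94 higher and HSPA5 0.30 lower in angelica. The extract comparisons with vehicle share the vehicle libraries, and pairs of extracts were not tested.

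Other lists differed from the average as well, beside 2.41% of all genes higher and 2.24% lower in angelica. In hypoxia and glycolysis 14 of 26 members were higher in angelica and 0 lower, led by the hydroxylase EGLN3 (0.47) and the carbonic anhydrase CA9 (0.36). CA9 was at 35.9 CPM in vehicle and 39.7 in angelica, at 21.4, 26.2 and 29.7 CPM in peony, licorice and poria, and at 40.7 and 41.6 CPM in atractylodes and ginseng. In mitosis 7 of 24 were higher and 0 lower, led by KIF20A (0.21). Of 11 iron genes 7 were lower and 1 higher, with the ferritin chains FTH1 and FTL at -0.42 and -0.37. Among NRF2 genes 9 of 29 were lower, NQO1 among them (-0.20), and 1, AKR1B10, was higher (0.58). AKR1B10 was at 5.96 CPM in angelica, and at 8.85, 5.65 and 5.18 CPM in poria, ginseng and peony. In atractylodes and licorice it was at 1.95 and 2.03 CPM, so angelica was above the average but below poria. Against vehicle the calls in angelica were otherwise. There 0 were higher and 2 lower in mitosis, 0 and 1 among iron genes, and 7 and 0 among NRF2 genes, NQO1 being higher. Of all genes 2.94% were higher and 3.53% lower against vehicle. The share called was 8.33% in mitosis and 9.09% among iron genes, beside 6.46% of all genes. The total of 833 was 244 without replicate 1 of angelica and 250 without replicate 2. Without these in turn, the members called were 9 and 7 higher in hypoxia and glycolysis, 0 in mitosis in each case, 4 and 3 lower among iron genes and 2 and 3 lower among NRF2 genes, and 20 and 22 lower in the NF-kB list.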

How the data were processed

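Gene expression was measured by RNA sequencing (100 bp paired ends, RIN above 7, directional library kit, per the labels' protocols). The deposited values are expected counts, 1 per gene and library. The submitters' processing notes name RSEM 1.3.3, STAR 2.7.3a, Trim Galore 0.6.5, FastQC 0.11.9 and the build GRCh38. Neither the annotation release nor the strand setting of the counting is given in the sources used here. The deposited table has 279 columns of values, 60 of which are samples described here, while 219 stayed unused. Since 9.48% of the deposited estimates had decimals (tolerance 1e-06), all were rounded. Symbols were found for 57055 of 60675 genes, and genes without one held 0.032% of the counts. Gene positions are from GENCODE 29.

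Genes kept by filterByExpr (minimum count 10, minimum total 15) were scaled by TMM and fitted in 1 robust quasi-likelihood model of 60 libraries in 22 groups with edgeR 4.0.16 (R 4.3.3), two-sided, with Benjamini-Hochberg adjustment over 17919 genes and a threshold of 0.05. The common biological coefficient of variation was 0.051. The SE was the size of the log2 fold change divided by the square root of F. The pipeline was tested on simulated counts with known changes in the high-dose group. It recovered 22 of 50 genes changed by 1.25-fold, 40 of 50 by 1.5-fold and 49 of 50 by 2-fold, with 9 false calls. Small changes can thus be missed. The comparison, its members and the 39 gene lists (716 members, 715 found) were chosen with earlier results of these data known.

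Genes were named by size of change, the 15 top risers and 15 top fallers with a call, an informative symbol, a mean of 5 CPM or more in either group and both angelica libraries on one side of all vehicle libraries, followed by the 3 lowest-p members (or fewer) of each list with at least 1 in 3 members called, to a cap of 70; other comparisons gave the 5 largest each way. Alternatives were RLE size factors, no filter, a replicate block, the groups of the comparison alone, DESeq2 1.42.0, and leaving out each library. A further one, chosen once the data had been seen, dropped replicate 1 of peony high, which had 37765 genes with a count, and replicate 2 of angelica low.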

Additional observations from a re-analysis of the deposited data

How the results depend on the processing

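Of 140 genes followed in the comparison of high dose and vehicle, 49 kept their call in every alternative, 91 lost it in at least 1 and 0 changed direction. Fitted on the groups of the comparison alone, the calls were 2952 for the high dose, 2219 for the medium dose and 102 for the low dose against vehicle, 6 for high against low dose and 518 against the other extracts. Without a filter there were 887 calls for the medium dose and 375 for high against low dose, and DESeq2 called 791 and 284. DESeq2 also moved the share of higher genes from 50.6% to 36.2% at the medium dose and from 60.4% to 46.6% at the low dose. Leaving out 1 library gave 264 to 815 calls for the high dose, 60 to 344 for the medium dose, 93 to 280 for the low dose, 37 to 847 for high against low dose and 244 to 902 against the other extracts. Without the libraries that stand apart, high against low dose had 39 calls, and 46.1% of the low-dose calls were higher. The majority among calls thus turned at the low dose, from 189 higher and 124 lower to 184 and 211 with DESeq2 and 155 and 181 without those libraries, and against the other extracts from 432 and 401 to 238 and 280 on the groups alone. With 2 libraries in each angelica group, leaving out 1 leaves a lone library, which is assumed to vary like the other groups. Among the angelica and vehicle libraries, same-numbered ones did not deviate together (correlations from -0.06 to 0.05). This gave no sign that the numbers pair these samples, but the other groups were not checked. A replicate block gave 1259 calls for the high dose, 491 for the low dose and 709 for the medium dose. These are more than the 1158, 313 and 522 of the main fit, so pairing was not settled. The cause of these shifts was not tested. Genes under about 1 CPM, such as ALDH3A1 and CYP1A1, rest on few counts.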
